A study of Mus musculus with 14 samples.

Results

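The loops described here are the chromatin contacts that MAPS, a caller for immunoprecipitated proximity ligation data, called in mouse embryonic stem cells (ESCs) without auxin and in no other group. They were chosen on the calls themselves. A pair of 10 kb bins was a member when it stood in the ESC control list and the same pair of bins stood in none of the lists of ESC auxin, NPC auxin and NPC control. Of the 56714 MAPS loops of ESC control, 22950 were members (40.5%), and they made up 16.7% of all bin pairs called in at least 1 of the 4 lists.

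H3K4me3 PLAC-seq had been done in F123 cells, a mouse ESC line, and in neural precursor cells (NPCs) made from it. The assay ligates DNA ends that lie close together in the nucleus and enriches fragments that carry trimethylated lysine 4 of histone H3, the mark of active and poised promoters. The ESC groups were ESC auxin, whose CTCF-AID cells had received auxin for 48 h, and ESC control, the CTCF-AID cells at 0 h. The NPC groups, also of CTCF-AID cells, were NPC auxin, differentiated with auxin and collected on day 4, and NPC control, collected on day 4 without it. AID is the degron through which auxin removes the tagged protein, and the cells of ESC control and NPC control carry it too. All groups come from 1 line, with 2 samples per group by the titles, but each caller's calls were deposited as 1 list per group. No difference between groups therefore has a replicate check, no test between groups was possible, and the 95% intervals below (exact, Clopper-Pearson) cover counting error only.

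CTCF is a zinc finger protein that stops the loop-extruding cohesin complex, and pairs of CTCF sites often form the feet of loops. Promoters also meet distal enhancers, and enhancers of the pluripotent state are switched off as ESCs become neural cells. A contact seen in ESC control alone is thus one that was not called again after CTCF removal, nor after differentiation.

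The promoters of 4 genes are shown because their bins ranked highest by number or by share of ESC control only loops among genes with a RefSeq promoter entry. AI467606 and Npas4 led by number, with 13 members each (Bcl11b, also with 13, came after them by summed reads), and Dusp13, a dual-specificity phosphatase gene, and Acot11, an acyl-CoA thioesterase gene, led by share. Each runs from 250 bases before to 50 bases after a start site in mm10, 5′ to 3′ on the gene's strand (RefSeq, GRCm38.p6). Capitals mark GC boxes (GGGCGG, on either strand), and none of these overlapped a match of another motif searched.
AI467606 (chr7:127091186-127091485, plus strand): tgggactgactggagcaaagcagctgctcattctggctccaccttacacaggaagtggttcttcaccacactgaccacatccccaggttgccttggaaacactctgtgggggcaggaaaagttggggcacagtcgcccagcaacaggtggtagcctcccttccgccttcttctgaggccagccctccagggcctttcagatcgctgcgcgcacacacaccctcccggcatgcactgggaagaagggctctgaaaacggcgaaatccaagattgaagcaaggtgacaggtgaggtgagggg
Npas4 (chr19:4989922-4990221, minus strand): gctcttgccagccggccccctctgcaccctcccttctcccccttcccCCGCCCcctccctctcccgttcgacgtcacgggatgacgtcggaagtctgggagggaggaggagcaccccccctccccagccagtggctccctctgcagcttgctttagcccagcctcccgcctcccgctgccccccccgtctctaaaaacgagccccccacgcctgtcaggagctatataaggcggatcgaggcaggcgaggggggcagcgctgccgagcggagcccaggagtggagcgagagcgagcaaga
Dusp13 (chr14:21748573-21748872, minus strand): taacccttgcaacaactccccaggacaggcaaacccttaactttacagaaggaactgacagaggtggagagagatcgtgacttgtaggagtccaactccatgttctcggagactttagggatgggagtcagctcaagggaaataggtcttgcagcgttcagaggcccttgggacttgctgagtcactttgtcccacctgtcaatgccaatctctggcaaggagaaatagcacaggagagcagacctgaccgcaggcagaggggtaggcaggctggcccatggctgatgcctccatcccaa
Acot11 (chr4:106799782-106800081, minus strand): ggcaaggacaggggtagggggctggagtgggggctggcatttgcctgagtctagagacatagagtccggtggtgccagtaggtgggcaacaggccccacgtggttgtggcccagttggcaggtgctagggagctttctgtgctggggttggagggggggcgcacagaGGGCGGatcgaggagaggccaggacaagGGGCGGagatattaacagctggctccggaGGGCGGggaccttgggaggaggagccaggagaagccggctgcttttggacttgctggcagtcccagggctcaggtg
The Acot11 window held 3 GC boxes, the Npas4 window 1, and the other 2 windows none.

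A GC box was found in 58.7% of the 535 promoters whose bin held at least 5 members (54.4 to 62.9%), in 60.2% of the 2867 promoters whose bin held ESC control loops but no member (58.3 to 62.0%), and in 46.2% of all 21263 promoters of the table. The core CTCF motif lay in 2 of the 535 (0.374%, 0.0453 to 1.34%), in 23 of the 2867 (0.802%) and in 119 of all (0.560%). The octamer ATGCAAAT, which POU factors such as Pou5f1 bind, lay in 1.87% of the promoters with at least 5 members, in 1.50% of those with none and in 1.66% of all. The ESRRB motif TCAAGGTCA lay in 3 of the 535 (0.561%, 0.116 to 1.63%), in 3 of the 2867 (0.105%, 0.0216 to 0.305%) and in 71 of all (0.334%). Both strands were searched and a promoter counted once per motif. These letters describe 300-base windows only, and a 10 kb anchor holds much more sequence.

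The 22950 members were weaker calls than the other 33764 ESC control loops. Their median read count was 23, against 28 in the others, and their median ratio of observed to expected reads was 2.76, against 3.03. Their median FDR was 0.000631, against 2.70e-05. The median count and the median ratio were lower in the members on all 19 autosomes, which come from the same lists. A call near the cut-offs in ESC control can more easily miss them in another list. These gaps thus follow in part from how the members were chosen. The members' counts ran from 12 to 497 and their ratios from 2.00 to 15.6.

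The share of ESC control loops that were members followed the FDR. When the loops were ranked by FDR into 10 classes, 10.4% of the class with the lowest FDR were members (9.62 to 11.2%), and 59.4% of the class with the highest (58.1 to 60.7%). The share was higher in each class than in the class before it, which also follows in part from the rule. Even so, 590 members lay in the strongest class, whose FDR was at most 2.76e-11. The deposited lists do not hold the counts of bin pairs that missed the threshold, so a member's reads in the other groups are unknown where no caller listed it.

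**Figure D1:**
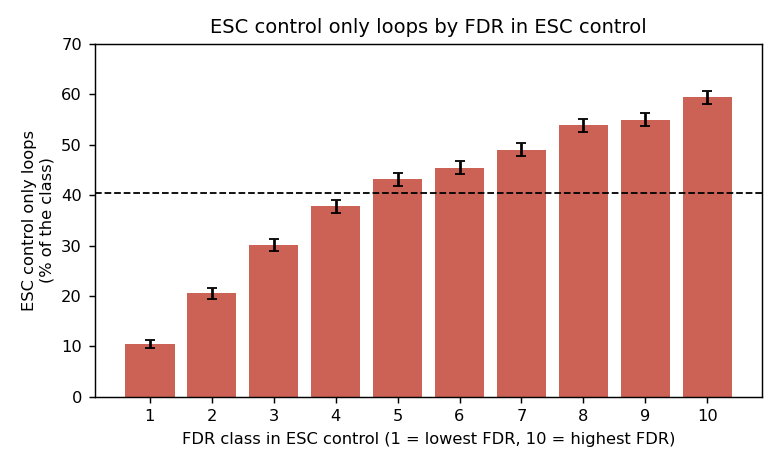
Share of ESC control loops that were ESC control only (%), by class of FDR in the ESC control list; bars are shares, whiskers 95% exact intervals for counting error, and the dashed line marks 40.5%, the share over all classes. The share runs from 10.4% in the class with the lowest FDR to 59.4% in the class with the highest.

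The values next to the threshold were as follows. The member nearest the threshold had an FDR of 0.00999988 in ESC control, with 16 reads between the bin of Fgf18 and a bin 190 kb away on chromosome 11. The ESC control loop that came nearest to being a member was on chromosome 6, 190 kb long with 25 reads in ESC control, and was called in NPC control with 16 reads at an FDR of 0.00999. A loop at Sox4, a transcription factor gene, was likewise kept out of the set by a call in NPC control with 26 reads at an FDR of 0.00999.

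Of the members, 10354 (45.1%, 44.5 to 45.8%) had no call in any other list even when each anchor was allowed to differ by 1 bin. The remaining 12596 had such a neighbour. A neighbouring call was found for 24.3% of the members in ESC auxin, for 18.6% in NPC auxin and for 45.3% in NPC control, whose lists held 27610, 41667 and 82861 loops in that order. A neighbour in an NPC list but not in ESC auxin was found for 7016 members, and one in ESC auxin but in no NPC list for 1435.

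The caller groups adjacent bin pairs into clusters. Of the 9224 clusters and single loops of ESC control, 2856 held members only, 4281 held members beside loops that were called elsewhere, and 2087 held none. The clusters of members only took up 5818 members (25.4%), had a median size of 2 and included 1105 single loops. The largest, with 16 bin pairs, joined chr5:24030001-24110000 with chr5:24300001-24390000, near Klhl7 and Fam126a on one side and Nos3, the endothelial nitric oxide synthase, and Kcnh2, a potassium channel, on the other. It held 9 marked bins and none of its 16 pairs had a neighbouring call in another list. Another, with 15 pairs, joined chr7:132570001-132720000 with chr7:132890001-132940000 between the promoters of Lhpp, Oat and Nkx1-2 and that of Zranb1, and its strongest pair was 7.52 times above the expected reads.

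**Figure D2:**
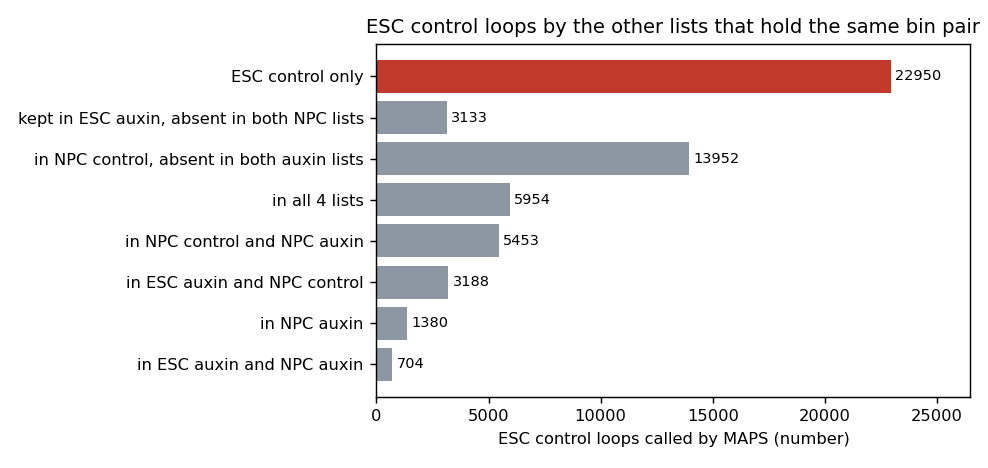
Number of ESC control loops called by MAPS, by the set of other lists that hold the same pair of bins; each bar is 1 set and the red bar is the set described here. The ESC control only set is the largest with 22950 loops, followed by the 13952 loops also in NPC control but in neither auxin list.

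FitHiChIP, the other caller, called a smaller share of the members than of the other ESC control loops. In ESC control it called 3551 members (15.5%, 15.0 to 15.9%), against 39.7% of the other ESC control loops. On all 19 autosomes the members' share was the lower one. Of those 3551 members, 3076 (86.6%) were in no other FitHiChIP list, 331 were also in that of NPC control, 198 in that of ESC auxin and 118 in that of NPC auxin. By FitHiChIP alone, with the same rule, 9937 of 33475 ESC control loops were ESC control only (29.7%). Where FitHiChIP called a member in ESC auxin and in ESC control, its contacts relative to the list totals had a median log2 ratio of -0.24 (ESC auxin over ESC control, 198 members), against -0.15 at the 4416 other loops in both lists. For NPC control over ESC control the median log2 ratio was -0.05 at 331 members and 0.17 at 9202 other loops. By the rule the members lack a MAPS call in ESC auxin and NPC control, and both callers used the same samples. The lower ratios of the members thus follow in part from how they were chosen.

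The members spanned about the same distances as other loops. Their median distance was 220 kb (quartiles 140 and 330 kb), against 230 kb in the other ESC control loops. Of all ESC control loops under 100 kb, 45.3% were members, of those from 100 to 200 kb 41.2%, from 200 to 500 kb 40.2%, and of longer ones 34.0% (32.7 to 35.4%). Per autosome the share of members lay between 36.2 and 44.7%.

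The H3K4me3 marks of the anchors differed more. Each loop of the lists has an H3K4me3 peak at 1 anchor or at both, since MAPS tests no other pairs. In 21.5% of the members both anchors were peak bins (21.0 to 22.1%), against 29.7% of the other ESC control loops, and the members' share was lower on all 19 autosomes. Within classes of like FDR and distance the gap was -3.73 percentage points and had the same sign in 34 of 39 classes. The loops most like the members are the 3133 that were kept in ESC auxin and absent in both NPC lists, and the 13952 that were in NPC control and absent in both auxin lists. Both anchors were peak bins in 33.3% of the first group and in 23.8% of the second. Within classes of like FDR and distance the members' share was lower than that of the first group (-9.02 points, lower in 26 of 31 classes), and higher than that of the second by 0.56 points (lower in 17 of 39 classes).

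Many members touched no promoter. A promoter bin is here a bin with an H3K4me3 mark that holds the start site of a protein-coding gene in the RefSeq promoter table or, for genes without an entry there, a marked bin at a gene end, which may be the 3′ end. No promoter bin lay at either anchor in 11140 members (48.5%, 47.9 to 49.2%), against 30.5% of the other ESC control loops. The members' share was the higher one on all 19 autosomes and in all 39 classes of like FDR and distance. It was 48.9% in the loops kept in ESC auxin and absent in NPCs, and 30.9% in the loops of NPC control that were absent after auxin. With start sites of the promoter table alone it was 60.0% of the members and 45.9% of the other ESC control loops. Read the other way, 52.0% of the ESC control loops with no promoter bin were members, against 33.7% of those with 1 and 32.0% of those with 2.

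The NPC lists carry their own marks, and these show which bin pairs were open to calling there. Neither anchor was marked in an NPC list in 5671 members (24.7%, 24.2 to 25.3%). In 3945 of them every ESC-marked anchor was listed as unmarked in NPCs, and in the other 1726 at least 1 such anchor was not listed, so its mark in NPCs is unknown. The same held for 31.4% of the loops kept in ESC auxin and absent in NPCs (29.8 to 33.0%), and the members' share was lower on 16 of 19 autosomes. Loops called in NPCs have a marked anchor there by construction, so their share of 0 is no finding. The other 17279 members had an anchor marked in NPCs and were still not called in either NPC list. The share of members by promoter bin differed with these marks. Among ESC control loops with an anchor marked in NPCs, 40.4% of those without a promoter bin were members, against 31.8% of those with any. Where neither anchor was marked in NPCs, the shares were 85.1 and 85.8%, with no such gap. Such loops could be kept out of the set by the ESC auxin list alone, so these high shares follow in part from the rule. The lists of ESC auxin and ESC control marked all 23093 of their shared bins alike, so the marks do not show H3K4me3 after auxin.

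**Figure D3:**
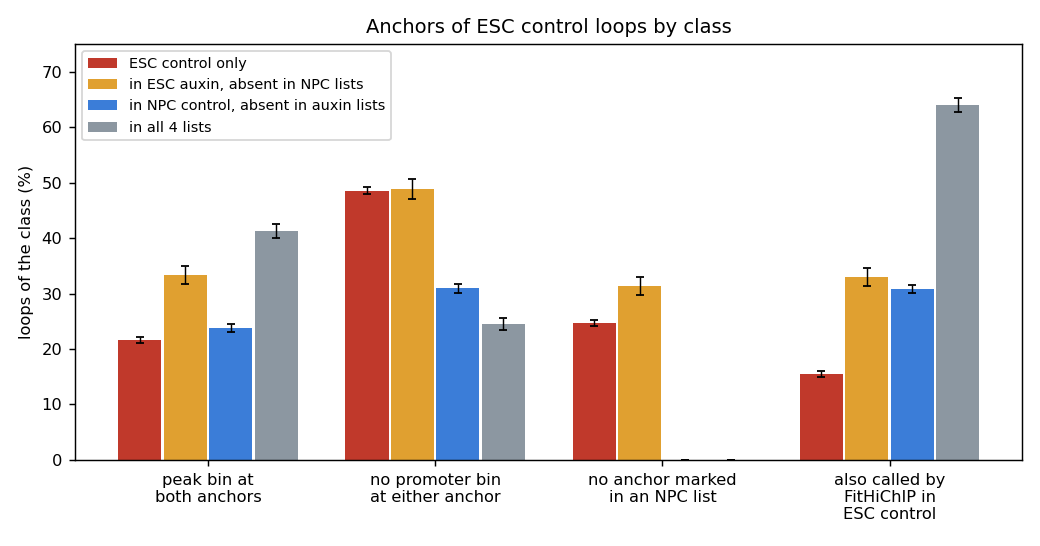
Share of the loops of 4 classes of ESC control loops (%) with each of 4 properties; bars are shares and whiskers 95% exact intervals for counting error. ESC control only loops and loops kept in ESC auxin both lack a promoter bin in nearly the same share (48.5 and 48.9%), while FitHiChIP called 15.5% of the first and 33.0% of the second.

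Anchors unmarked in NPCs were mostly bins without a promoter. The members' anchors fell on 6131 promoter bins with a mark, 5873 marked bins without a promoter and 13902 unmarked bins. Of the 5873, 23.8% were listed as unmarked in NPCs and 16.5% were not listed, against 3.36 and 6.74% of the 6131. Among marked bins without a promoter that held ESC control loops but no member, 15.0% were unmarked in NPCs and 2.92% not listed. By the rule every loop at such bins was called in another list, so the gap follows in part from how the bins were chosen. Of the 5873 bins 56.0% lay in a protein-coding gene and 21.4% held an end of a lncRNA or miRNA gene, close to the 57.7 and 22.8% of the 1403 bins without members.

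The short-range reads at a bin, which MAPS takes as a measure of its H3K4me3 enrichment, were lower in NPCs at bins without a promoter and higher at promoter bins, relative to the median bin. Log2 ratios were centred on the median of all ESC-marked bins in both lists. Before centring, in reads not scaled by depth, that median was 0.88 for NPC control and 0.28 for ESC auxin, each over ESC control. A negative median below is therefore a smaller ratio than at the median bin, not a fall in unscaled reads. At bins without a promoter whose ESC control loops were all members, the median log2 ratio of NPC control over ESC control was -0.37 (997 bins). It was -0.35 where members stood beside other loops and -0.23 at the 1307 bins without members. At promoter bins the medians were 0.28, 0.25 and 0.40. For ESC auxin over ESC control all 6 medians lay between -0.04 and 0.04. The ratios also differed by NPC mark. Over all bins with any member, the median for NPC control over ESC control was 0.05 at the 8135 marked in NPCs. It was -0.56 at the 1477 unmarked there. These ratios include only bins that hold a loop in both lists, so bins without a loop in the second list are left out.

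The bins with the most members were mostly not promoters. Of the 50 bins with the most, 39 held no promoter bin and 34 were not marked in an NPC list. Over all 12004 marked bins with members these shares were 48.9% and 24.9%. A bin unmarked in NPCs is less open to NPC calls, so the ranking itself favours such bins. They were ranked after the data had been seen, so the 10 bins named next are examples. A bin inside Map3k1, a kinase gene of the MAP kinase cascade (chr13:111780001-111790000), held 8 loops in ESC auxin, 1 in NPC auxin, 0 in NPC control and 27 in ESC control, of which 22 were members. Their partners lay 140 to 500 kb away, and the bin was unmarked in NPCs. FitHiChIP called 7 loops there in ESC control, 1 each in ESC auxin and NPC auxin and 0 in NPC control.

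An intergenic bin at chr2:169130001-169140000, 174 kb from the nearest protein-coding gene, Zfp64, held 3 loops in ESC auxin, 0 in NPC auxin, 1 in NPC control and 23 in ESC control, 20 of them members. A bin inside Frmd6, a gene of the Hippo pathway (chr12:70890001-70900000), held 0, 1, 1 and 15 loops in the same order of groups, and all 15 were members. FitHiChIP called 7 loops at the Frmd6 bin in ESC control and 0 in the other lists. Both bins were unmarked in NPCs.

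Other bins of the 10 were marked in NPCs. The bin of the lncRNA 1700049E22Rik, 41.8 kb from Shq1 (chr6:100520001-100530000), held 4 loops in ESC auxin, 2 in NPC auxin, 7 in NPC control and 27 in ESC control, with 20 members. Another bin 1.81 kb from Shq1, a gene for snoRNP assembly, held 21, 8, 16 and 30 loops, with 15 members. A pair of adjacent bins 15.3 and 25.3 kb from Tbx3, a naive pluripotency factor gene (chr5:119700001-119720000), held 15 members each. The first of them held 12 loops in ESC auxin, 13 in NPC auxin, 20 in NPC control and 32 in ESC control, and the second 10, 7, 6 and 21. A marked bin 14.0 kb from Mrpl33 held 16 members, and bins inside Syne3 and Rnf220, both unmarked in NPCs, held 15 each. The Syne3 bin held 15 loops in ESC auxin, 3 in NPC auxin, 5 in NPC control and 28 in ESC control. FitHiChIP called 7, 0, 3 and 8 loops there in the same order, and 2 of the 8 were ESC control only. At the Rnf220 bin 3 of 4 FitHiChIP loops of ESC control were.

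**Figure D4:**
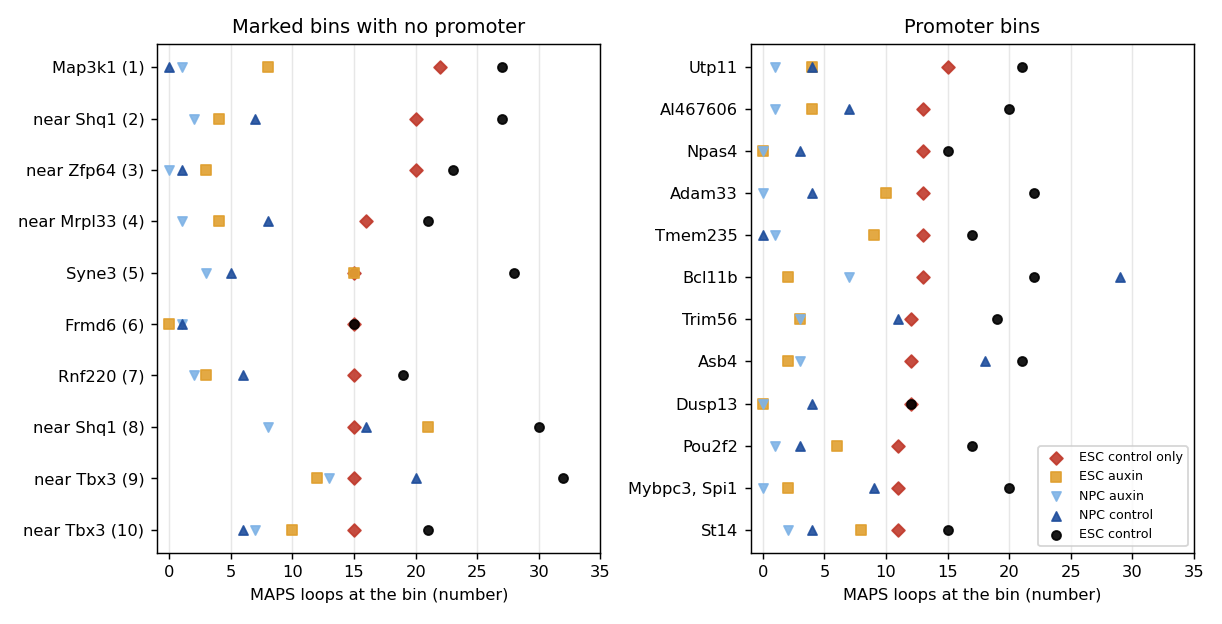
MAPS loops (number) at the 10 bins without a promoter (left, named by the gene they lie in or near, with their rank) and the 12 promoter bins (right) that held the most ESC control only loops; each mark is 1 list, and red diamonds are the ESC control only loops. NPC control exceeds ESC control in 1 of these bins, that of Bcl11b.

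Among promoter bins the member counts were lower, with at most 15. The bin of Utp11, a ribosome biogenesis factor gene (chr4:124670001-124680000), held 4 loops in ESC auxin, 1 in NPC auxin, 4 in NPC control and 21 in ESC control, with 15 members, and none of the 15 partners was marked in ESCs. The bin touches that of Pou3f1, a POU factor gene of formative pluripotency and neural cells, whose 2 promoter bins (chr4:124650001-124670000) held 9, 9, 47 and 34 loops with 13 members. The members of both reached partners between 124090001 and 124520000. Utp11 is placed here by its gene end and was unmarked in NPCs, whereas both Pou3f1 bins were marked.

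The bin of Npas4, a neuronal activity-dependent transcription factor gene (chr19:4980001-4990000), held 0 loops in ESC auxin, 0 in NPC auxin, 3 in NPC control and 15 in ESC control, with 13 members. Their partners lay 230 to 480 kb away, and 6 of the 13 were marked. FitHiChIP called 1 loop at Npas4 in ESC auxin, 2 in NPC auxin, 2 in NPC control and 11 in ESC control, and 9 of these 11 were in no other FitHiChIP list. The bin of Dusp13 (chr14:21740001-21750000) held 0, 0, 4 and 12 loops, and all 12 were members. It was the only one of 1023 promoter bins with at least 10 ESC control loops at which every loop was a member.

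The other bins that led by number were those of AI467606 (13 members of 20 loops), Adam33 (13 of 22), Tmem235 (13 of 17), Trim56 (12 of 19), Asb4 (12 of 21), Pou2f2, a B-cell POU factor gene (11 of 17), St14, the serine protease matriptase (11 of 15), and the bin of Mybpc3 and Spi1 (11 of 20). That of Bcl11b, a transcription factor gene of T cells and cortical neurons, had 13 members of 22 loops, and its NPC loops were many: it held 2 loops in ESC auxin, 7 in NPC auxin and 29 in NPC control. Its members, which by the rule lie at other bin pairs than those loops, had partners 200 to 700 kb away, none of them marked in ESCs. Adam33, Tmem235 and St14 were placed by a gene end alone, which may be the 3′ end. The bin of Mybpc3 and Spi1 was placed by a gene end and a start site. By FitHiChIP, ESC control only loops were fewer at these bins: 11 at Adam33, 9 at Trim56, 6 each at Tmem235 and St14, 5 at AI467606, 4 each at Dusp13 and Pou2f2, 3 each at Utp11 and Bcl11b, 2 at Asb4 and 0 at Mybpc3 and Spi1.

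By share, Dusp13 was followed by Acot11 (10 of 11 loops), the bin of Rnft2 and Spring1 (9 of 10), Npas4 (13 of 15), then Isg20, an interferon-induced exonuclease gene, Perm1, a muscle regulator of mitochondria, and Krt2, a keratin gene (9 of 11 each), and Dusp27 (8 of 10). At Acot11 no loop was called in ESC auxin or NPC auxin, and 1 in NPC control. Isg20 had 7 loops in ESC auxin, 0 in NPC auxin and 2 in NPC control. Over the 1023 bins the median share of members was 21.1%, with 104 bins at 0 and 116 above 50%. Of the 104, the 4 with the most loops were Zfp703, the bin of Zfp36l1 and Gm52006, Cited2 and Sox6, with 40, 37, 34 and 31 ESC control loops and no member. These bins held 71, 72, 91 and 70 loops in NPC control.

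Members that join promoters of different genes numbered 1547, and the 8 with the most reads were short. The strongest had 269 reads, 2.19 times the expected number, over 50 kb between Tmem107, a gene of the ciliary transition zone, and the bin of Aloxe3, an epidermal lipoxygenase, and Hes7, a segmentation clock gene. Its FitHiChIP counts were 198 in ESC auxin, 225 in NPC auxin, 282 in NPC control and 259 in ESC control. The pair of Mib2, a Notch pathway ubiquitin ligase, and Fndc10 had 236 reads and FitHiChIP counts of 173, 325, 258 and 240 in the same order. MAPS called both pairs in ESC control alone, and FitHiChIP called both in all 4 lists. At Mmp23 and Fndc10 (215 reads) and at Ccno and Cdc20b (181 reads) FitHiChIP likewise called all 4 groups.

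The bin of Ifi30 and Mpv17l2 with that of Il12rb1, an interleukin receptor subunit gene, had 206 reads over 60 kb, no neighbouring MAPS call in another list and a FitHiChIP call in ESC control alone, with 199 contacts. The bin of Kifc1, a mitotic kinesin gene, and Smim40 with that of Tapbp, an antigen-loading factor gene, and Zbtb22 had 236 reads over 20 kb. FitHiChIP called this pair too in ESC control alone, with 364 contacts, but MAPS had a call within 1 bin of it in NPC control. The pair of Stac3 and Ndufa4l2 with Nxph4 (223 reads) was also called by FitHiChIP in NPC control, and that of Prpsap1 with Sphk1 and Ube2o (186 reads) in NPC auxin and NPC control. All 8 had ratios between 2.04 and 2.22, close to the lower limit of 2.00 for a MAPS loop.

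The 6 members with the highest ratio of observed to expected reads were of another kind, 360 to 790 kb long with a mark at 1 anchor. The highest had 41 reads where 2.63 were expected (15.6-fold), between a bin 1.11 kb from Enc1, an actin-binding protein gene, and a marked bin inside Arhgef28, 700 kb apart on chromosome 13. The next joined a marked bin in Mrc2 with a bin in Tanc2 over 570 kb (32 reads, 11.2-fold). The marked St14 bin, placed by a gene end alone, met a bin 2.86 kb from Snx19 over 610 kb (32 reads, 10.8-fold). A bin 2.95 kb from Hhipl2 met a marked bin 154 kb from Dusp10 (26 reads, 10.4-fold). A marked bin 6.68 kb from Gadd45g, a growth arrest gene, met a bin 284 kb from Diras2 (56 reads, 10.1-fold), and a marked bin 116 kb from Thbs2 met one in Wdr27 (31 reads, 9.94-fold). FitHiChIP called all 6 in ESC control, with 24 to 54 contacts, and none of them in another list. At 3 of the 6 (Enc1, St14 and Gadd45g) MAPS had calls within 1 bin in all 3 other lists. The other 3 had none.

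At promoters of the gene lists the members' share can be set beside 33.5%, the share of members among all 35279 ESC control loops with a promoter bin. The median over the 9386 genes with ESC control loops was 33.3%. At the 16 core pluripotency genes 15 of 86 ESC control loops were members (17.4%, 10.1 to 27.1%). By FitHiChIP the share was 37.7%, above the 28.3% of all FitHiChIP loops of ESC control with a promoter bin, so the side on which this list lay depended on the caller. Nanog, Pou5f1, Zfp42, Lin28a and Fgf4 each had 1 ESC control loop by MAPS, which was no member. In the FitHiChIP lists 2 of 3 ESC control loops at Nanog and 1 of 2 at Pou5f1 were ESC control only. The same held for 2 of 6 at Zfp42, 2 of 4 at Lin28a and 0 of 1 at Fgf4. Sox2 had 1 member of 12 loops, and held 13 loops in ESC auxin, 18 in NPC auxin and 35 in NPC control. Dnmt3l, a regulator of DNA methylation, and Tdh, a threonine dehydrogenase gene, had 3 members each, of 8 and 3 loops, Sall4 had 2 of 13 and Utf1 2 of 2. Tdgf1, Dppa4, L1td1 and Mycn had 1 member each, of 3, 1, 16 and 20 loops. Trim71 had none of 3. Dppa2 had no ESC control loop by MAPS, but 2 by FitHiChIP, both ESC control only.

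At naive pluripotency genes 22 of 65 loops were members (33.8%, 22.6 to 46.6%). FitHiChIP put the share at 40.0%, above that caller's 28.3%. Tbx3 alone held 38 of the 65, and the median share per gene was 66.7%, against 33.3% over all genes. With start sites of the promoter table alone the pooled share was 58.8%. The share over all promoters in that setting is not given here, and 33.5% does not apply to it. Tbx3 had 6 members, Tet2, a DNA demethylation enzyme gene, 4 of 6, Fbxo15 4 of 5, Nr5a2 3 of 3 and Prdm14 2 of 3. Klf2, Tcl1 and Tfcp2l1 each had 1 loop in ESC control, and it was a member. The Klf2 member joined chr8:72310001-72320000 with a bin 50 kb away and had 69 reads. Klf4 had 4 loops, Dppa5a 2 and Zfp42 1, and none was a member. Esrrb, Dppa3, Jam2 and Klf5 had no ESC control loop by MAPS.

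Formative and primed genes had 44 members of 129 loops (34.1%, 26.0 to 43.0%), close to the share over all promoters. FitHiChIP put the share at 41.1%, above that caller's 28.3%. Besides Pou3f1 the genes with members included Zic2 (7 of 14), Fgf15 (6 of 24), Nkx1-2 (4 of 5), Sall2 (3 of 3) and Dnmt3b (1 of 1, with 141 reads over 30 kb). Lef1, Zic5 and Epha2 had 2 members each, of 8, 4 and 2 loops, and Sox4, Dnmt3a, Etv5 and Fgf5 had 1 each, of 20, 4, 3 and 2. Etv4 and Foxd3 had loops but no member, and Otx2 had no ESC control loop.

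The lists with the lowest shares were FGF and MAPK signalling (20 of 168 loops, 11.9%, 7.43 to 17.8%), led by Spry4 and Spred1, and the Hox genes (61 of 479, 12.7%, 9.88 to 16.1%), led by Hoxc6 with 7 members and Hoxa4 with 6. Housekeeping genes had 2 of 13 (15.4%, both at Polr2a), mesoderm and endoderm genes 30 of 177 (16.9%), led by Fgf8 and Evx1, and neural progenitor genes 34 of 200 (17.0%), led by Zic2 and Hes1. TGF-beta, Nodal and BMP genes had 27 of 136 (19.9%), led by Tgfb3 and Fst, but 30.8% by FitHiChIP, above that caller's 28.3%. Extraembryonic genes had 39 of 180 (21.7%), led by Cdx2 and Tfap2c. LIF and STAT3 genes had 14 of 63 (22.2%), led by Lif and Osmr, and Wnt genes 33 of 133 (24.8%), led by Dvl1 and Wnt3. Of the 18 lists, 14 lay below 33.5%.

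The highest share was at genes of CTCF, cohesin and loop factors, with 16 of 31 loops (51.6%, 33.1 to 69.8%), led by Mau2, which loads cohesin, with 4 of 4 loops, and Ctcfl, the germ cell paralogue of CTCF, with 3 of 3. This count rests on 11 genes, and by FitHiChIP the share was 20%, below the 28.3% of that caller. Loops at other bin pairs were called at both genes in other lists. Mau2 held 0 in ESC auxin, 2 in NPC auxin and 1 in NPC control, and Ctcfl 5, 0 and 1. Germ cell genes had 22 of 58 (37.9%, and 54.2% by FitHiChIP), led by Tfap2c and Ddx4, DNA methylation and remodelling genes 20 of 62 (32.3%), led by Tet2 and Kdm1a, epithelial adhesion genes 14 of 44 (31.8%), led by Krt18 and Cdh3, Polycomb genes 22 of 73 (30.1%), led by Phc2 and Pcgf1, and glycolysis genes 19 of 73 (26.0%), led by Aldoa and Pdk1. In the FitHiChIP lists, where 28.3% of the ESC control loops with a promoter bin were ESC control only, 9 of the 18 lists lay below that share. Of the lists below 33.5% by MAPS, besides core pluripotency and TGF-beta genes, the Polycomb (36.4%), DNA methylation and remodelling (30.4%), epithelial adhesion (37.9%) and glycolysis lists (32.5%) lay above it by FitHiChIP.

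**Figure D5:**
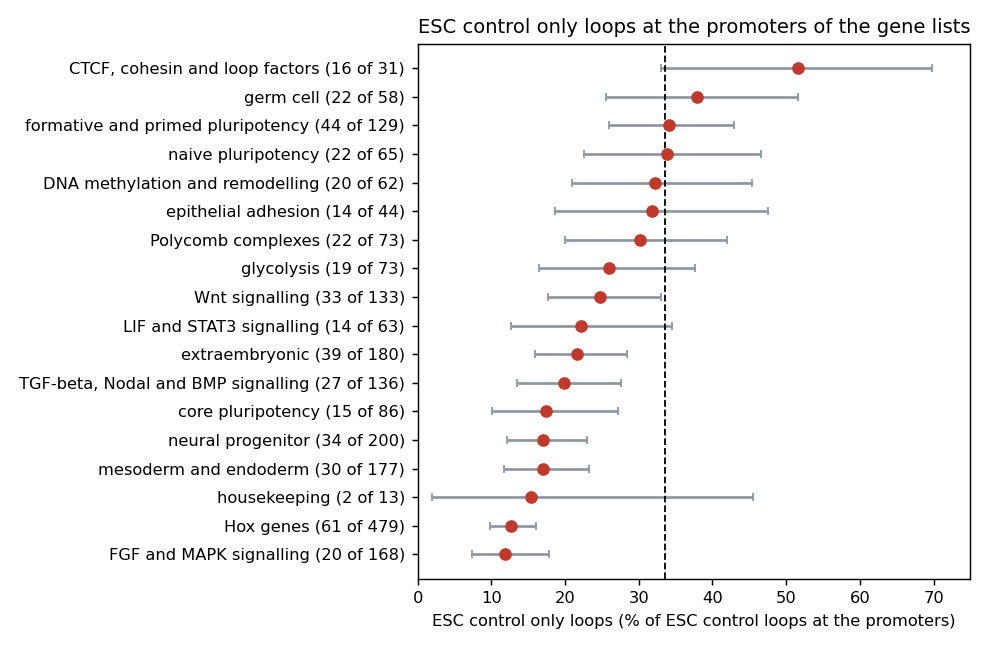
ESC control only loops as a share (%) of the ESC control loops at the promoters of 18 gene lists; points are shares, whiskers 95% exact intervals for counting error, counts stand beside each list, and the dashed line marks 33.5%, the share over all loops with a promoter bin. The shares run from 11.9% for FGF and MAPK signalling to 51.6% for CTCF, cohesin and loop factors.

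The marks at the defining genes did not separate the cell types. Of 10 ESC markers 9 had a marked promoter bin in NPCs and 9 in ESC control, of 10 NPC markers 9 and 9, and of 6 mesoderm and endoderm markers 6 and 6. The exceptions were Esrrb, marked in NPCs and not listed in ESC control, Tfcp2l1, not listed in NPCs, and Fabp7, with no marked bin in any list.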

How the data were processed

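H3K4me3 PLAC-seq was deposited for 14 samples, of which the 8 samples of 4 groups were used. Reads were processed with BWA and Picard against mm10, per the submitters' processing notes, which give no versions. How the 2 samples of a group became 1 list is not stated in the sources used here. Per the file headers, the MAPS lists deposited by the authors hold a read count, an expected count (a background signal modelled by the caller), their ratio, an FDR (a q-value), short-range read counts, peak marks and a cluster for each pair of 10 kb bins, with a count of at least 12, a ratio of at least 2.00 and an FDR under 0.01 in the 4 lists, over 20 to 1000 kb and 19 autosomes. The deposited FitHiChIP lists hold contact counts, q-values, anchor coverage and, as a fraction, each pair's expected part of the contacts. Dividing the expected contacts by this deposited fraction gave each list's total. It was 48307867 contacts in ESC auxin, 59961568 in NPC auxin, 52337421 in NPC control and 47519917 in ESC control. Whether these totals bear on the calls was not tested.

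Membership was set by exact bins in Python 3 with pandas and checked on simulated lists. Genes and promoters came from RefSeq (GRCm38.p6): 17492 of 21900 protein-coding genes had start sites, 11280 of them in a marked bin, and 4408 others were placed by marked gene ends, 2951 of them with one. Named promoter bins were the 12 with the most members, the 8 highest and 4 lowest by share among bins with at least 10 ESC control loops, the 2 leading genes of each list and all pluripotency genes with a promoter bin; named members were the 8 promoter pairs with the most reads and the 6 with the highest ratio. Intervals treat loops as independent, although adjacent pairs are not. The members, gene lists and rules were chosen with earlier results of these data known. No column of per-sample values was left unmapped (0). The dCas9 groups were not analysed here. Alternatives in bins, caller, list length, FDR, count, clusters and excluding lists were tried.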

Additional observations from a re-analysis of the deposited data

Results flagged for a closer look

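Some FitHiChIP loops lie outside what the MAPS lists cover, by chromosome or by distance. Each kind was flagged for numbering above 3. This is no test, and shows only that such loops exist, since the MAPS lists hold autosomes alone and stop at 1000 kb. On X and Y, 184 FitHiChIP loops of ESC control were in no other FitHiChIP list, of 537 there (34.3%), 181 of them on X. Over 1000 kb, 795 of 5859 were in no other FitHiChIP list (13.6%), a lower share than the 29.7% over all ESC control FitHiChIP loops.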

How the results depend on the processing

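No paired analysis was possible because each group has 1 list per caller, and leaving out a replicate could not be run for the same reason. The causes of the shifts below were not tested.

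The 22950 members became 10354 when anchors could differ by 1 bin, 9937 in the FitHiChIP lists, 11527 with lists cut to 27610 loops each, 7641 at an FDR under 1e-04, 14527 at a count of at least 20, 2856 with 1 loop per cluster and 43735 when the ESC auxin list alone excluded loops. Their share of the ESC control loops, 40.5%, was 18.3, 29.7, 41.7, 28.0, 35.8, 31.0 and 77.1% in the same order, 46.0% when only the NPC lists excluded loops and 41.3% without clusters of over 50 pairs (an alternative chosen after seeing the data).

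The share with a peak bin at both anchors, 21.5%, was 20.3% (1 bin), 55.6% (FitHiChIP), 26.0% (equal length), 26.1% (FDR), 25.3% (count), 23.1% (clusters), 23.0% (ESC auxin list only) and 23.0% (NPC lists only). The median distance, 220 kb, was 300.0 kb (FitHiChIP), 190 kb (equal length), 180 kb (FDR), 170 kb (count), 230 kb (ESC auxin list only) and 210 kb (no large clusters). The share with promoter bins at both anchors, 6.78%, was 17.8% (FitHiChIP), 8.70% (equal length), 9.19% (FDR), 8.74% (count), 8.89% (clusters), 7.41% (ESC auxin list only), 7.33% (NPC lists only) and 4.36% (promoter table only).

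The next 2 results were added after seeing the data. The share with no promoter bin, 48.5%, was 37.4% (FitHiChIP), 43.9% (equal length), 47.2% (FDR), 44.2% (count), 42.1% (clusters), 39.3% (ESC auxin list only) and 60.0% (promoter table only). The share with no anchor marked in NPCs, 24.7%, was 29.1% (1 bin), 15.2% (FitHiChIP), 17.96% (equal length), 26.8% (FDR), 22.3% (count), 23.1% (clusters), 13.0% (ESC auxin list only) and 25.5% (NPC lists only). At the named promoter bins FitHiChIP moved 17 of 22 member counts by over 1.5 times and adding both neighbouring bins moved 11. At the gene lists FitHiChIP moved 4 of 18 shares out of their interval, the 1-bin rule moved 18, and start sites of the promoter table alone moved 1. Under the 1-bin rule the share over all loops with a promoter bin itself went from 33.5 to 15.0%. Of the 18 lists, 15 lay below it, against 14 in the main setting. Depth was not varied, and the median count was 18 in the class with the highest FDR.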

Other observations

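Members that both callers and both bin rules set apart are a small part of the whole. Of the 22950 members, 1224 (5.33%) had no MAPS call within 1 bin in another list, were called by FitHiChIP in ESC control and were in no other FitHiChIP list. These criteria were chosen after the data had been seen. Both anchors were peak bins in 62.6% of the 1224 (59.8 to 65.3%), against 21.5% of all members, and their median distance was 330 kb. The requirement of a FitHiChIP call bears on this share: by that caller alone, 55.6% of the ESC control only loops had a peak bin at both anchors.

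The 12 with the lowest FDR join named neighbours over 40 to 420 kb. The first joined a bin in Numbl, a Notch antagonist gene, with one in Sptbn4 (116 reads, 3.73-fold over the expected number, chromosome 7). Another joined a marked bin in Ttll6 with a bin nearest to Hoxb9, 80 kb away (105 reads, 3.98-fold). The Wnt6 promoter met the Fev promoter over 110 kb (151 reads, 2.80-fold), and the Tpm1 promoter, of a tropomyosin gene, met a bin 40 kb away (163 reads, 2.80-fold). A marked bin nearest to Bcl2l14 met a bin nearest to Gm46977 over 420 kb with 40 reads, 9.23-fold over the expected number.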
